A study of Mus musculus with 10 samples.

Results

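The genes described here are 9 components of the Nodal and Activin signalling pathway, namely the ligand gene Nodal, its co-receptor Tdgf1, the receptors Acvr1b and Acvr2b, the antagonists Lefty1 and Lefty2, the transcription factor Foxh1 and the intracellular inhibitors Smad7 and Skil. They were taken by name from the pathway, with earlier results of these data known, and are 9 of the 21853 protein-coding genes listed in each library. All 9 were present in the tables and all 9 passed the filter on low values. Bulk mRNA sequencing covered 5 lines of mouse embryonic stem cells (ESCs), each with 2 libraries, and asked what the loss of Gys1, of AMPK and of both changes. Expression is given as TPM, a share of a library's transcripts corrected for gene length, so that levels of different genes can be set side by side.

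The naïve line is wild-type J1, an established mouse ESC line. AKO, GKO and DKO are J1 lines with genotypes given as AMPK KO, GYS1 KO and both, respectively. AMPK is an energy-sensing kinase with the catalytic subunit genes Prkaa1, which was targeted, and Prkaa2. Gys1 encodes muscle-type glycogen synthase. These 4 lines shared 1 medium, with 15% FBS, 1000 U/ml LIF, 1 µM of the MEK inhibitor PD0325901 and 3 µM of the GSK3 inhibitor CHIR99021, on gelatin. The primed line PJ1 is wild-type J1 kept on Matrigel in 20% KnockOut Serum Replacement with 10 ng/ml bFgf and 20 ng/ml Activin. Primed ESCs thus received a ligand of this pathway from the medium, and state and medium cannot be told apart in that comparison. How many clones stand behind each line, from which line DKO was made, and whether the 2 libraries of a line came from separate cultures are not given in the sources used here, so p-values measure only the spread between these libraries. With 2 libraries against 2, no exact two-sided test can give a p below 0.333, and tests were therefore made by limma across all genes.

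Nodal and Activin are ligands of the TGF-β family that bind type II and type I receptor kinases at the cell surface. Nodal also needs a co-receptor, Cripto, which is the product of Tdgf1, whereas Activin does not. The activated receptors phosphorylate SMAD2 and SMAD3, which enter the nucleus with SMAD4 and bind DNA with partners such as FOXH1. Nodal, Lefty1, Lefty2, Smad7 and Skil are well-known targets of the pathway as well as parts of it, so that the ligand feeds its own expression while the Lefty proteins, SMAD7 and SKIL restrain it. In the embryo the pathway holds the epiblast in its pluripotent state and then patterns mesoderm and endoderm, and primed ESCs depend on it more than naïve ESCs do.

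The targeted gene Prkaa1 was at 15.5 and 16.6 TPM in naïve ESCs, at 7.24 and 6.94 in AKO, at 12.2 and 12.0 in GKO, at 2.30 and 2.04 in DKO and at 13.4 and 13.7 in primed ESCs. Gys1 stood at 11.5 and 10.8 TPM in the naïve libraries, 12.7 and 12.2 in AKO, 9.70 and 9.98 in GKO, 12.1 and 11.7 in DKO and 13.6 and 14.3 in primed ESCs, so that its mRNA level is no check of the Gys1 genotypes. The 10 naïve marker genes summed to 1340 and 1313 TPM in naïve ESCs, 1346 and 1353 in AKO and 1467 and 1477 in DKO. Their sum was highest in GKO, at 1496 and 1534 TPM, and was 66.3 TPM in both primed libraries. The 10 primed marker genes summed to 585 and 590 TPM in primed ESCs, 72.7 and 74.6 in naïve ESCs, 67.0 and 64.3 in AKO, 66.2 and 68.1 in DKO and 104 TPM in both GKO libraries, which stood above the other 6 libraries grown with LIF. The primed libraries were alike in the sums of both lists, but not in every gene of them. In primed libraries 1 and 2, Fgf5 was at 10.7 and 0.447 TPM and Fgf8 at 20.6 and 1.36 TPM. Of the members, Acvr1b, Acvr2b, Foxh1 and Skil differed by at most 1.19-fold between the primed libraries. Nodal differed 4.85-fold between them, Lefty1 14.0-fold, Lefty2 5.15-fold, Tdgf1 5.61-fold and Smad7 2.52-fold, whereas replicates of the other 4 lines differed by at most 1.26-fold in any member. Markers of mesendoderm (6 genes) summed to 24.8 TPM in primed library 1 and 4.54 in primed library 2, and those of primitive endoderm (7 genes) to 8.96 and 2.93 TPM. In naïve ESCs the mesendoderm sum was higher, at 37.5 and 36.5 TPM, and the primitive endoderm sum lower, at 1.86 and 1.73 TPM. T and Eomes made up most of the naïve mesendoderm sum, at means of 15.1 and 20.1 TPM. Wnt3 went the other way, from a mean of 0.104 TPM in naïve ESCs to 4.62 and 1.57 in the primed libraries. Gsc was at a mean of 0.392 TPM in naïve ESCs and at 2.45 and 0.268 in the primed libraries. Whether cells of these types were present, and their part in the difference between the primed libraries, was not tested. In bulk RNA, fewer cells of a type and less RNA per cell cannot be told apart.

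Lefty1 and Lefty2 lie on the same chromosome and are near copies, and the tables count them separately, so their sequences are shown first. In GRCm39, Lefty2 spans chr1:180720635-180726932 and Lefty1 chr1:180762587-180765971, both on the plus strand, 35654 bases apart. Their coding sequences are both 1104 bases long and 91.8% identical, and the longest run without a difference is 140 bases. The 75-base stretch of a single exon with the most differences lies in exon 1, at chr1:180762725-180762799 in Lefty1 and chr1:180720799-180720873 in Lefty2. It holds 23 differing bases, printed in capitals.
Lefty1, exon 1: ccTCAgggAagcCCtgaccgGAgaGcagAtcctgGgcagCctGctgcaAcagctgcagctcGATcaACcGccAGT
Lefty2, exon 1: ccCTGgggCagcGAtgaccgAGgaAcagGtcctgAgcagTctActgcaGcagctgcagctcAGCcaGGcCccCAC
An exon 2 stretch of the same length, at chr1:180764133-180764207 in Lefty1 and chr1:180721721-180721795 in Lefty2, is identical in both genes.
Both genes, exon 2: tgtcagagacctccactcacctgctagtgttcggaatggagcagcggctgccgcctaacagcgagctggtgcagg
A read from the first stretch names its gene and a read wholly inside the last does not. Of the 75-base windows of the transcripts, 11.1% in Lefty1 and 7.1% in Lefty2 were shared with the other gene, and 8.3% of those in Tdgf1 were shared with the pseudogene Tdgf1-ps1. Windows of the other 6 members were shared with no other gene. The estimation that divides such reads among genes was the authors', so the sum of both Lefty genes is given beside their separate levels.

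Tdgf1 had the widest range of level among the members, and its promoter window is shown for that reason. RefSeq promoter windows (GRCm38.p6, 300 bases around the start) were at hand for 4 of the 9 members, Tdgf1, Acvr2b, Nodal and Acvr1b. They were searched on both strands for the forkhead-type FOXH1 sequences TGTGGATT, TGTTTATT and TGTNNATT, of which the first pair are special cases of the last, and for the SMAD sequences GTCTAGAC and CAGAC. The Tdgf1 window, chr9:110946109-110946408 on the minus strand, holds TGTNNATT at 2 places and CAGAC at 1, in capitals, with the former in reverse complement.
Tdgf1 promoter: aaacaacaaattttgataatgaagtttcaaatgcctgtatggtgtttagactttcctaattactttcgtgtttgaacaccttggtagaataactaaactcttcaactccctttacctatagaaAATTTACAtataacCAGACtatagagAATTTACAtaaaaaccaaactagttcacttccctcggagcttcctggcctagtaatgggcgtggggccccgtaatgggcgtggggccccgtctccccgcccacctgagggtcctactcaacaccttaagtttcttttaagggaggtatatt
Of 32851 promoter windows, 12.2% held TGTNNATT and 49.6% held CAGAC, so neither sequence is rare. The Acvr2b window held CAGAC at 1 place, and in the windows of Nodal and Acvr1b none of the 5 sequences was found. TGTGGATT was in 0.855% of all windows, TGTTTATT in 1.86% and GTCTAGAC in 0.213%, and none of these letters was in the windows of the 4 members.

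**Figure D1:**
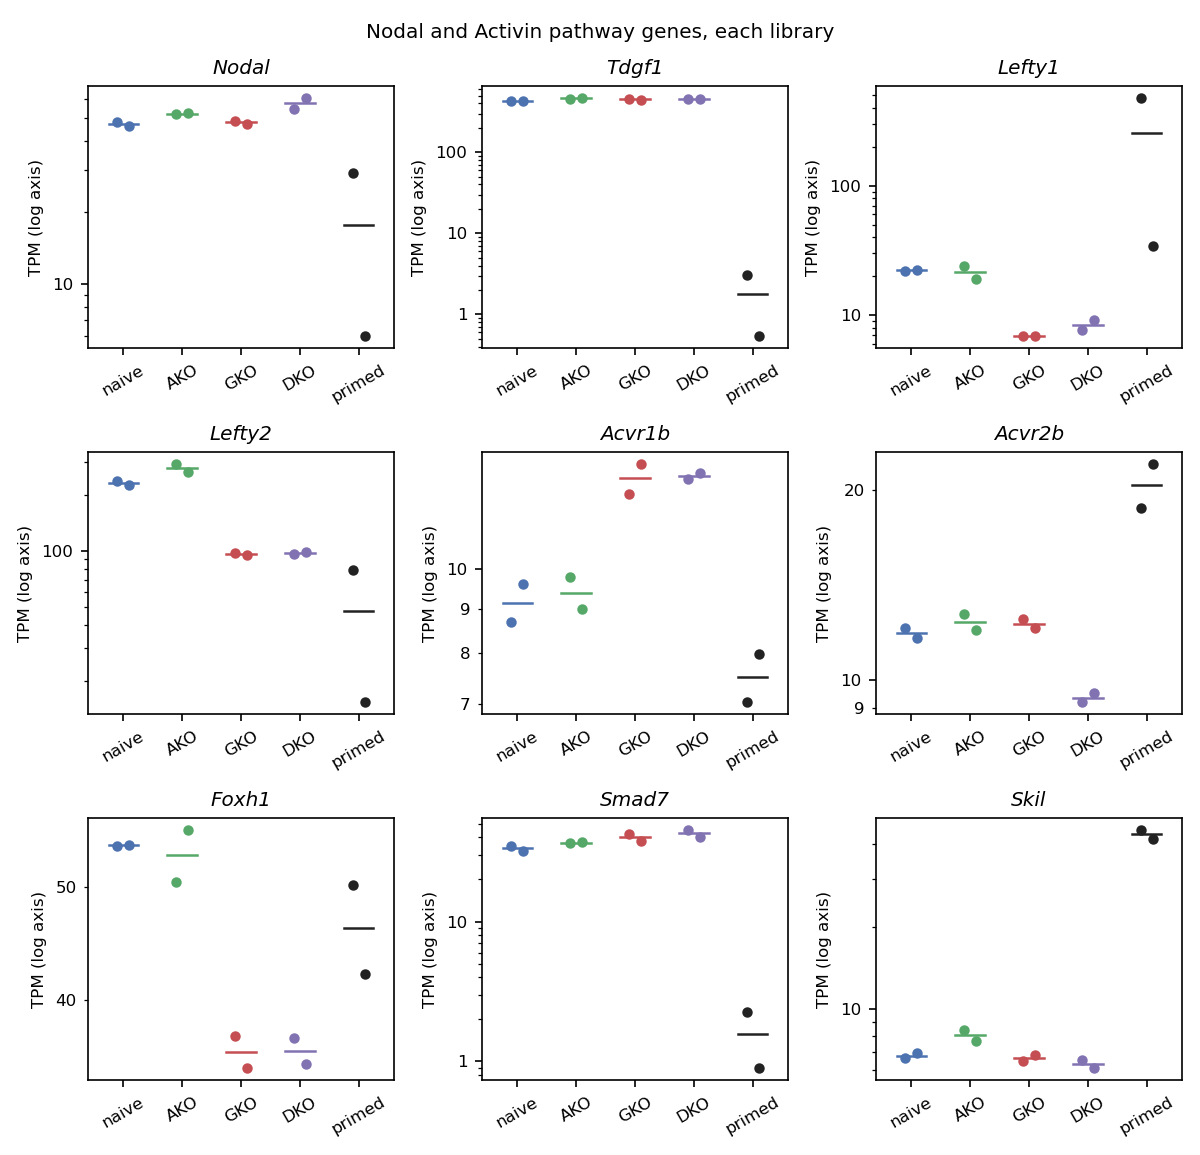
TPM of the 9 genes in each library on log axes, with each line's 2 libraries as points and their mean as a bar. GKO and DKO stand below naïve ESCs and AKO in Lefty1, Lefty2 and Foxh1 and above them in Acvr1b, DKO alone of the lines grown with LIF stands apart in Acvr2b, and the primed libraries lie far from each other in Nodal, Tdgf1, Lefty1 and Lefty2.

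Loss of Gys1 left the ligand and its co-receptor near their naïve levels and went with lower Lefty1, Lefty2 and Foxh1 and higher Acvr1b. In GKO against naïve ESCs, Acvr1b rose and Foxh1 fell in the fit to all 10 libraries, which makes 2 of 9 members, where 51.7% of the 12060 tested genes passed, 24.7% higher and 27.1% lower (32.7% and 16.6% after each library was rescaled to the same sum). In that fit the error of each gene is shared by all lines. The primed pair supplied between 98.9% and 99.9% of the residual sum of squares of Nodal, Lefty1, Lefty2 and Tdgf1 and 90.1% of that of Smad7, against 28.5% for Skil and 38.8% for Acvr1b. Without the primed libraries, 5 of 9 members passed in GKO against naïve ESCs, with Lefty1, Lefty2 and Smad7 added, where 60.4% of all genes passed. The members' median difference was 0.02 on the log2(TPM + 1) scale and that of all tested genes -0.01. Neither share of members stands clearly above that of all genes, so the counts say nothing particular about the pathway. The results lie in the single genes.

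In DKO against naïve ESCs, 3 of 9 members passed in the fit to all libraries, Acvr1b as a rise and Acvr2b and Foxh1 as falls, where 46.0% of all genes passed, 21.7% higher and 24.3% lower (25.3% and 17.2% rescaled). Without the primed libraries 7 of 9 passed, all but Tdgf1 and Skil, where 54.8% of all genes did. The median difference of the members was -0.09 and that of all genes -0.01. In AKO against naïve ESCs, 0 of 9 members passed by limma. Skil alone, 1 of 9, had an unadjusted p below 0.05, as did 1231 of the 12060 tested genes. Under each of the other settings tried, 0 members passed. Across all genes 0.224% passed in AKO, 0.0663% higher and 0.158% lower (0.0155% and 0.0698% rescaled), and 1.09% without the primed libraries. GKO, DKO and AKO were compared with the same naïve libraries.

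**Figure D2:**
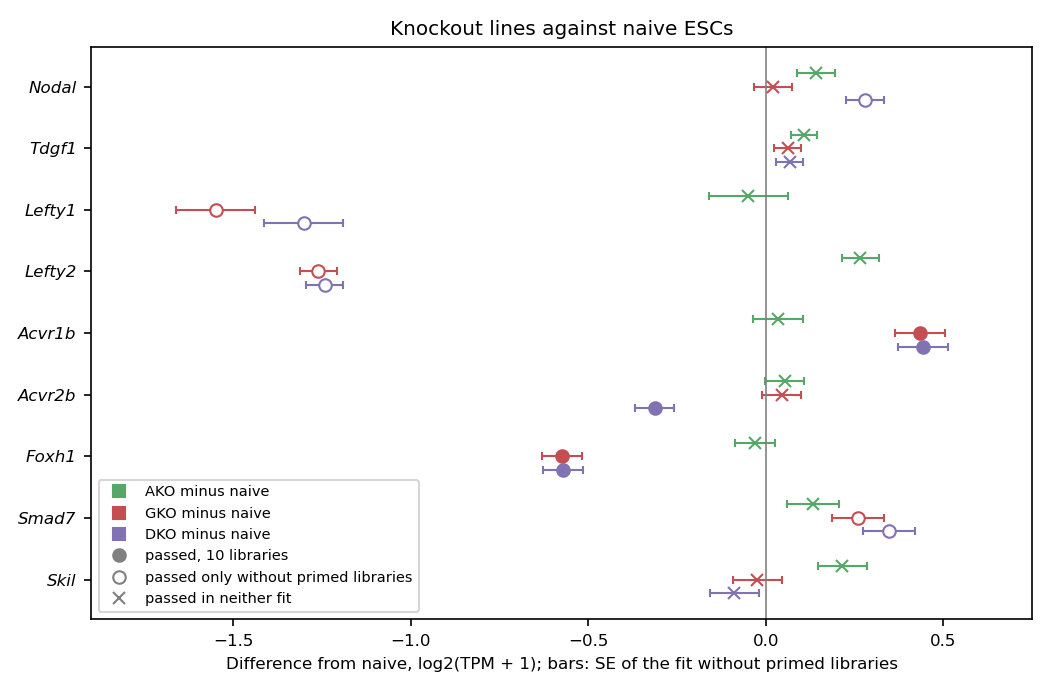
Difference of each gene from naïve ESCs in AKO, GKO and DKO on the log2(TPM + 1) scale, with bars for the standard error of the fit without the primed libraries. Filled circles passed the adjusted p of 0.05 in the fit to all 10 libraries, open circles only without the primed libraries, and crosses in neither. Lefty1 and Lefty2 in GKO and DKO lie between -1.55 and -1.24, farthest from naïve ESCs, and are open circles.

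Nodal, the ligand gene (chr10:61253587-61261117, plus strand, GRCm39), stood at 48.1 and 46.0 TPM in naïve ESCs, 51.6 and 52.5 in AKO, 48.3 and 47.2 in GKO and 54.2 and 60.6 in DKO. Primed ESCs were at 29.2 and 6.02 TPM. The order of means was DKO, AKO, GKO, naïve and primed, and the libraries of GKO and naïve ESCs overlapped while those of the other neighbours did not. The difference was 0.02 in GKO (SE 0.51, adjusted p = 0.98) and 0.28 in DKO (SE 0.51, adjusted p = 0.69). Without the primed libraries, Nodal was 1.22-fold higher in DKO than in naïve ESCs (SE 0.05 in log2, adjusted p = 0.0027) and passed as lower in GKO than in DKO (-0.26, adjusted p = 0.0044). Nodal fell by 1.72 in primed ESCs (SE 0.51, adjusted p = 0.011), with both primed libraries below every other library. The size depended on the library, being -2.78 without primed library 1 and -0.67 without primed library 2.

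Tdgf1, which encodes the co-receptor Cripto (chr9:110768655-110775292, minus strand, GRCm39), was the most abundant member in the lines grown with LIF. Levels were 431 and 426 TPM in naïve ESCs, 456 and 467 in AKO, 451 and 443 in GKO and 448 and 450 in DKO. Primed ESCs were at 3.05 and 0.543 TPM. The 8 libraries of the 4 lines lay within a narrow band, with DKO and GKO overlapping and the other neighbours apart by little. Tdgf1 passed in none of the comparisons among these lines (GKO against naïve ESCs 0.06, SE 0.04 and adjusted p = 0.19 without the primed libraries). In primed ESCs it fell by 7.43 (SE 0.33, adjusted p = 6.15e-08), 239-fold between the means, the largest change of any member. Under the removal of either primed library the difference stayed between -8.12 and -6.73.

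Among the receptors, Acvr1b rose with the loss of Gys1 in both AMPK backgrounds, while the response of Acvr2b differed between them. Acvr1b encodes ALK4, the type I receptor for Nodal and Activin (chr15:101071921-101111565, plus strand, GRCm39). Its level was 8.68 and 9.62 TPM in naïve ESCs, 9.79 and 8.99 in AKO, 12.2 and 13.2 in GKO and 12.7 and 12.9 in DKO. All 4 libraries of GKO and DKO exceeded all 4 of naïve ESCs and AKO, and within each pair of lines the libraries overlapped. Acvr1b rose by 0.43 in GKO against naïve ESCs (SE 0.08, adjusted p = 0.0021) and by 0.41 in DKO against AKO (SE 0.08, adjusted p = 0.0033), contrasts that use different libraries. In DKO against naïve ESCs the rise was 0.44 (SE 0.08, adjusted p = 0.0022). Primed ESCs were at 7.04 and 7.99 TPM, a fall of 0.25 (SE 0.08, adjusted p = 0.017) that did not pass without naïve library 2 (adjusted p = 0.12), without primed library 1 (adjusted p = 0.094) or after rescaling each library to the same sum (-0.10, adjusted p = 0.33).

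Acvr2b encodes a type II receptor for Activin, Nodal and related ligands (chr9:119231103-119271213, plus strand, GRCm39). Its levels were 12.1 and 11.7 TPM in naïve ESCs, 12.7 and 12.0 in AKO and 12.5 and 12.1 in GKO, and these 3 lines overlapped. DKO stood below them at 9.21 and 9.52 TPM and primed ESCs above at 18.8 and 22.0 TPM. Acvr2b fell by 0.31 in DKO against naïve ESCs (SE 0.08, adjusted p = 0.0094) and by 0.37 against AKO (SE 0.08, adjusted p = 0.0044), and was higher by 0.36 in GKO than in DKO (SE 0.08, adjusted p = 0.0056). The fall against naïve ESCs did not pass without naïve library 1 (adjusted p = 0.062) or without DKO library 1 (adjusted p = 0.055). In primed ESCs Acvr2b rose by 0.73 (SE 0.08, adjusted p = 1.84e-05). It was the only member whose response to Gys1 loss differed by AMPK background in the fit to all libraries.

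The test of that difference sets GKO minus naïve ESCs against DKO minus AKO. The difference for Acvr2b was 0.41 (SE 0.11, adjusted p = 0.024), with 0.04 without and -0.37 with the AMPK KO genotype. Of all genes 25.8% passed this test, 12.8% higher and 13.1% lower, against 1 of 9 members, whose median was 0.05 beside -0.02 for all genes. Leaving out 1 library at a time, the difference for Acvr2b stayed between 0.37 and 0.45 but did not pass without naïve library 1, naïve library 2, AKO library 1 or either library of GKO or DKO (adjusted p between 0.056 and 0.086). Without the primed libraries 2 members passed, Acvr2b (adjusted p = 0.0047) and Lefty2 (0.25, adjusted p = 0.032), where 37.3% of all genes did. Between GKO and DKO directly, 1 of 9 members passed, and 2 without the primed libraries, where 43.5% and 53.4% of all genes passed. Higher genes in GKO were 21.2% and lower genes 22.4% (23.8% and 16.3% rescaled), and the members' median was -0.01, as was that of all genes. DKO against AKO gave 4 of 9 members and 7 without the primed libraries, where 46.3% and 55.2% of all genes passed. There 22.4% of all genes were higher and 23.9% lower (27.4% and 16.1% rescaled), and the members' median was -0.30 beside 0.00 for all genes.

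Lefty1 and Lefty2 encode secreted antagonists that bind Nodal or its co-receptor, and they had the largest differences of the 9 members among the lines grown with LIF. Lefty1 stood at 22.0 and 22.2 TPM in naïve ESCs, 23.9 and 19.0 in AKO, 6.90 and 6.88 in GKO and 7.60 and 9.21 in DKO. Lefty2 stood at 238 and 225 TPM in naïve ESCs, 292 and 264 in AKO, 97.1 and 94.6 in GKO and 96.2 and 97.9 in DKO. For both genes every library of GKO and DKO lay below every library of naïve ESCs and AKO. GKO and DKO overlapped in Lefty2 but not in Lefty1, and naïve ESCs and AKO overlapped in Lefty1 but not in Lefty2.

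The mean of Lefty1 was 3.21-fold lower in GKO than in naïve ESCs and that of Lefty2 2.41-fold lower. On the log2(TPM + 1) scale the differences were -1.55 for Lefty1 (SE 0.91, adjusted p = 0.18) and -1.26 for Lefty2 (SE 0.55, adjusted p = 0.084), so neither passed in the fit to all 10 libraries. Without the primed libraries the differences were the same, with SEs of 0.11 and 0.05, and both passed (adjusted p = 1.54e-05 and 1.78e-06). In DKO against naïve ESCs they were -1.30 for Lefty1 (adjusted p = 0.27, and 4.39e-05 without the primed libraries) and -1.24 for Lefty2 (adjusted p = 0.096, and 2.14e-06). In DKO against AKO they were -1.25 for Lefty1 (adjusted p = 0.29, and 5.13e-05) and -1.51 for Lefty2 (adjusted p = 0.050, and 1.16e-06). GKO and DKO differed by -0.25 in Lefty1 and -0.02 in Lefty2, and neither passed with or without the primed libraries.

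The sum of both Lefty genes still depends in part on how reads were divided between them, because TPM is corrected for length and their transcripts are 1626 bases (Lefty1) and 2511 bases (Lefty2) long. It was 260 and 247 TPM in naïve ESCs, 316 and 283 in AKO, 104 and 101 in GKO and 104 and 107 in DKO. The sum in GKO was -1.29 from naïve ESCs (adjusted p = 0.22, and 1.83e-06 without the primed libraries). The ratio of this sum to Nodal was 5.39 and 5.37 in naïve ESCs, 6.13 and 5.40 in AKO, 2.15 and 2.15 in GKO and 1.92 and 1.77 in DKO. Transcripts of the antagonists per transcript of the ligand were thus at 2 levels, with GKO and DKO below and no overlap. Lefty1 was between 6.63% and 8.98% of the sum in these 8 libraries. Its share in GKO, at 6.63% and 6.78%, lay below that in naïve ESCs, at 8.48% and 8.98%, without overlap. The share in AKO, at 7.55% and 6.71%, overlapped that in GKO, and the share in DKO, at 7.32% and 8.60%, overlapped that in naïve ESCs.

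**Figure D3:**
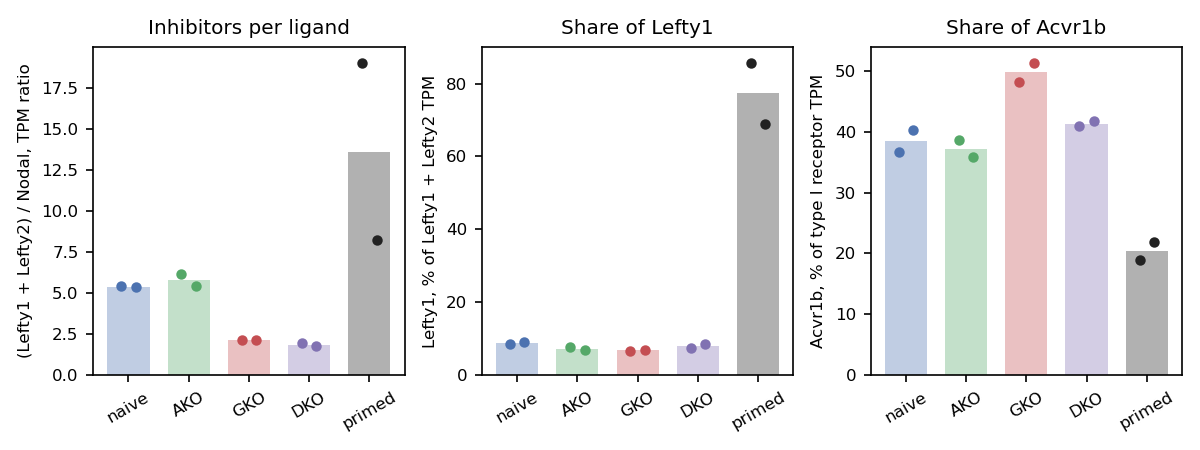
Ratio of the summed Lefty1 and Lefty2 TPM to Nodal TPM (left), the share of Lefty1 in that sum (middle) and the share of Acvr1b in the summed TPM of the type I receptors Acvr1b and Tgfbr1 and Acvr1c (right), with each library as a point and the mean as a bar. GKO and DKO lie near 2 in the left panel against values above 5 in naïve ESCs and AKO, and the primed libraries stand apart in all panels.

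Primed ESCs had the opposite order of the Lefty genes. Lefty1 was at 477 TPM in primed library 1 and 34.0 in library 2, both above all other libraries, while Lefty2 was at 79.2 and 15.4 TPM, both below them. Lefty1 was 85.8% and 68.8% of the Lefty sum. Lefty1 rose by 2.48 (SE 0.91, adjusted p = 0.031), and the value was 0.60 without primed library 1 and 4.37 without library 2. It did not pass without either naïve library (adjusted p = 0.091 and 0.090), without the filter on low values (0.066) or with only the naïve and primed libraries (0.12). Lefty2 fell by 2.68 (SE 0.55, adjusted p = 0.0016) and passed under every setting tried. The Lefty sum, at 556 and 49.3 TPM, lay above naïve ESCs in 1 primed library and below in the other, and its difference turned from 1.13 without library 2 to -2.34 without library 1.

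Foxh1 encodes the forkhead factor that brings SMAD2 and SMAD4 to DNA. Its level was 54.2 and 54.3 TPM in naïve ESCs, 50.5 and 55.9 in AKO, 37.3 and 35.0 in GKO, 37.1 and 35.3 in DKO and 50.1 and 42.1 in primed ESCs. GKO and DKO overlapped with each other and lay below every other library, and naïve ESCs and AKO overlapped. Against naïve ESCs Foxh1 fell by 0.57 both in GKO (SE 0.08, adjusted p = 0.00049) and in DKO (SE 0.08, adjusted p = 0.00063). In DKO against AKO it fell by 0.54 (SE 0.08, adjusted p = 0.00083). These falls and the rises of Acvr1b passed under every setting other than a minimum difference of 1. In primed ESCs Foxh1 fell by 0.24 (SE 0.08, adjusted p = 0.026), which did not pass without primed library 2 (-0.11, adjusted p = 0.16), without either naïve library (adjusted p = 0.083 and 0.085), with only the naïve and primed libraries (adjusted p = 0.071) or after quantile normalization (-0.03, adjusted p = 0.71) or rescaling to the same sum (-0.06, adjusted p = 0.52).

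Foxh1 (chr15:76552028-76554148, minus strand, GRCm39) is overlapped on the other strand by Kifc2 and Ppp1r16a. Ppp1r16a fell by 0.67 in GKO (adjusted p = 5.80e-05) and 0.48 in DKO (adjusted p = 0.00043), and Kifc2 was at -0.14 and -0.01 (adjusted p = 0.22 and 0.96). The libraries are described as strand-specific, but whether strand was used in counting is not given in the sources used here. Foxh1 and Acvr1b are both on chromosome 15, where the median of 467 tested genes was lower than on the other chromosomes by 0.15 in GKO and 0.16 in DKO against naïve ESCs and by 0.20 in DKO against AKO. In AKO against naïve ESCs it was higher by 0.03. The fall of Foxh1 was larger than these shifts and the rise of Acvr1b was in the other direction. The part of the chromosome in the values of either gene was not tested.

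Of the intracellular inhibitors, Smad7 was above its naïve mean by 1.2-fold in GKO and 1.28-fold in DKO. Skil changed less among the lines grown with LIF. In primed ESCs Smad7 fell and Skil rose. Smad7 encodes the inhibitory SMAD that blocks the type I receptors (chr18:75500374-75529006, plus strand, GRCm39). Its level was 34.9 and 32.0 TPM in naïve ESCs, 36.3 and 37.2 in AKO, 42.6 and 37.9 in GKO, 45.2 and 40.4 in DKO and 2.26 and 0.896 in primed ESCs. Libraries of GKO and DKO overlapped and were above those of AKO, which were above those of naïve ESCs. The differences from naïve ESCs were 0.26 in GKO (adjusted p = 0.31, and 0.015 without the primed libraries) and 0.35 in DKO (adjusted p = 0.19, and 0.0042). In primed ESCs Smad7 fell by 3.79 (SE 0.20, adjusted p = 1.79e-07), 21.2-fold between the means.

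Skil encodes SnoN, a nuclear co-repressor of the SMAD complex (chr3:31148816-31176740, plus strand, GRCm39). Its level was 6.62 and 6.91 TPM in naïve ESCs, 8.40 and 7.64 in AKO, 6.48 and 6.79 in GKO, 6.50 and 6.10 in DKO and 45.2 and 42.0 in primed ESCs. AKO stood slightly above the other 3 lines, at 0.22 from naïve ESCs (SE 0.07, adjusted p = 0.33). Skil fell by 0.30 in DKO against AKO (SE 0.07, adjusted p = 0.0072), which did not pass without AKO library 1 (adjusted p = 0.058) or DKO library 2 (adjusted p = 0.051). In primed ESCs it rose by 2.52 (SE 0.07, adjusted p = 3.11e-09), 6.45-fold between the means, and the primed libraries differed by only 1.08-fold.

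In primed against naïve ESCs all 9 members passed, 3 higher (Lefty1, Acvr2b and Skil) and 6 lower (Nodal, Lefty2, Tdgf1, Smad7, Acvr1b and Foxh1). Of all genes 80.0% passed, 37.4% higher and 42.5% lower (44.6% and 32.7% rescaled), so that passing was common. The members' median was -0.25 and that of all genes -0.05, while the median absolute difference was 2.48 for the members and 0.55 for all genes. With only the naïve and primed libraries in the fit, 5 members passed, which were Lefty2, Tdgf1, Smad7, Acvr2b and Skil. In that fit 8918 of the 12060 tested genes passed. Both libraries agreed on the side of naïve ESCs for each member, but for Nodal, Lefty1 and Lefty2 the size rested on the library.

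The wider pathway was followed in 41 further genes, of which 33 passed the filter and 8 did not (Inhba, Tgfb2, Tgfb3, Acvr1c, Cfc1, Cer1, Fstl3 and Gsc). In GKO against naïve ESCs 10 of the 33 rose and 7 fell, where 24.7% of all genes were higher and 27.1% lower. In DKO against naïve ESCs 5 rose and 8 fell, where 21.7% and 24.3% of all genes did. In AKO 0 passed by limma, where 0.224% of all genes passed. There 4 of the 33 had an unadjusted p below 0.05, as did 1231 of the 12060 tested genes. The medians of the 33 genes in GKO, DKO and AKO were 0.15, 0.00 and -0.01, respectively. GKO against DKO gave 13 higher and 6 lower (21.2% and 22.4% of all genes), and DKO against AKO 5 higher and 8 lower (22.4% and 23.9%). The difference between both Gys1 contrasts gave 9 higher and 4 lower (12.8% and 13.1%), and primed against naïve ESCs 15 higher and 11 lower (37.4% and 42.5%). As with the members, passing was common among all genes, and nothing particular to the pathway is read from these counts.

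The largest of these changes in GKO was a ligand gene. Inhbb, which encodes the subunit of Activin B, stood at 1.59 and 1.61 TPM in naïve ESCs, 1.16 and 1.16 in AKO, 2.62 and 2.02 in DKO and 11.4 and 11.6 in GKO. It rose by 2.26 in GKO (SE 0.09, adjusted p = 6.39e-07), 7.18-fold between the means, and was higher by 1.91 in GKO than in DKO (adjusted p = 3.73e-06). In DKO Inhbb rose by 0.62 against AKO (SE 0.09, adjusted p = 0.00073), 2.00-fold between the means, and this passed under every setting that tested it other than a minimum difference of 1. Against naïve ESCs it rose by 0.35 in DKO (SE 0.09, adjusted p = 0.013), 1.45-fold, which did not pass without either naïve library (adjusted p = 0.066 and 0.059), without DKO library 1 (0.22, adjusted p = 0.093) or after quantile normalization (0.25, adjusted p = 0.068). In primed ESCs it was at 0.122 and 0.146 TPM. Furin, a protease that processes the ligand precursors, stood at 9.14 and 8.80 TPM in naïve ESCs, 8.78 and 7.64 in AKO, 13.1 and 13.6 in GKO and 4.52 and 4.63 in DKO. Furin rose by 0.53 (adjusted p = 0.00038) in GKO and fell by 0.84 (adjusted p = 4.38e-05) in DKO against naïve ESCs and by 0.72 against AKO (adjusted p = 8.96e-05), so the lines lay on either side of naïve ESCs. Fst, which encodes the Activin-binding protein follistatin, stood at 7.08 and 6.74 TPM in naïve ESCs, 6.83 and 7.08 in DKO and 3.38 and 2.77 in GKO. It fell by 0.96 in GKO (adjusted p = 0.00030) and rose by 2.23 in primed ESCs (adjusted p = 2.89e-07), where it was at 39.4 and 32.8 TPM. Smad3, a receptor-activated SMAD, stood at 3.56 and 3.62 TPM in naïve ESCs, 3.87 and 3.58 in DKO and 8.06 and 7.27 in GKO, a rise of 0.92 (adjusted p = 4.27e-05).

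For Inhbb, Furin, Fst and Smad3 the response to Gys1 loss differed by AMPK background. The test of that difference gave 1.65 for Inhbb (adjusted p = 0.00011), 1.25 for Furin (adjusted p = 0.00013), -0.94 for Fst (adjusted p = 0.0061) and 0.91 for Smad3 (adjusted p = 0.00096). Zfyve9, which encodes the SMAD anchor SARA, gave 0.70 (adjusted p = 0.00097), with 6.22 and 6.53 TPM in naïve ESCs, 6.09 and 6.41 in AKO, 8.58 and 8.60 in GKO and 4.93 and 4.64 in DKO. Between GKO and DKO directly, GKO was higher by 1.36 in Furin (adjusted p = 5.77e-06) and 0.87 in Smad3 (adjusted p = 7.55e-05) and lower in Fst (-0.97, adjusted p = 0.00042). The 10 primed markers summed to 104 TPM in both GKO libraries against 72.7 and 74.6 in naïve ESCs, but did not rise together. In TPM Zic2 rose most, from a mean of 14.0 to 33.5. Sfrp2 rose from 1.79 to 6.02 TPM, Zic5 from 5.91 to 9.78 and Dnmt3a from 15.6 to 17.8. Pou3f1 rose from 1.2 to 1.66 TPM and Cdh2 from 0.809 to 1.49. Dnmt3b was at 27.9 and 28.0 and Fgf8 at 0.46 and 0.48, and Otx2 (5.91 and 5.68) and Fgf5 were not higher. The trophectoderm markers (6 genes, 4 of them at 1 TPM or more) summed to 46.9 and 48.4 TPM in GKO. Their sums were 19.0 and 18.2 in naïve ESCs and 27.1 and 29.5 in DKO. Among them Tfap2c rose from a mean of 6.49 in naïve ESCs to 23.7 TPM in GKO. Cdx2 rose from a mean of 2.62 in naïve ESCs to 6.94 TPM in GKO and 6.79 in DKO. In GKO Krt8 rose from 6.91 to 12.6 TPM and Krt18 from 1.80 to 4.17. Gata3 and Elf5 were below 1 TPM in every library, and Gata3 fell from 0.77 to 0.0745 TPM in GKO. Fibroblast markers (6 genes) summed to 7.97 and 9.22 TPM in GKO and 3.46 and 2.88 in naïve ESCs, with Lum and Dcn at 0 in both GKO libraries. Of these, Thy1 rose from a mean of 2.72 to 7.81 TPM and Col1a1 from 0.247 to 0.73, while Col1a2 and Col3a1 did not rise. The part of cells of these types in these results was not tested.

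Ccn2, a TGF-β target, stood at 12.3 and 10.0 TPM in naïve ESCs, 13.0 and 13.8 in DKO and 5.95 and 5.19 in GKO. It fell by 0.89 in GKO (SE 0.33, adjusted p = 0.047), a call that was lost under 5 of the settings that kept all libraries and without any 1 library other than a primed one (adjusted p between 0.058 and 0.19). GKO against DKO gave -1.14 (adjusted p = 0.021), which missed the threshold without any 1 library of GKO or DKO (adjusted p between 0.067 and 0.10).

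Of the wider list in primed ESCs, Gdf3, a ligand related to Nodal, fell by 2.22 (adjusted p = 2.71e-08) from 82.1 and 78.4 TPM to 18.3 and 14.7. Pcsk6, a protease for ligand precursors, fell by 2.22 (adjusted p = 2.19e-09) from 12.1 and 12.4 to 1.89 and 1.81 TPM, and Gdf11, a ligand of the Activin class, rose by 2.17 (adjusted p = 1.04e-08) from 0.411 and 0.474 to 5.29 and 5.71 TPM. Pmepa1, which encodes a membrane-bound inhibitor of SMAD activation, fell by 1.28 (adjusted p = 0.014) to 6.41 and 1.43 TPM from 8.33 and 10.4, and missed the threshold without naïve library 2 (adjusted p = 0.074) and with only the naïve and primed libraries (adjusted p = 0.083). The size rested on the library, being -2.09 without primed library 1 and -0.48 without primed library 2. Cer1, a secreted Nodal antagonist, was listed at 0 in the 8 other libraries and reached 9.80 and 0.484 TPM in primed ESCs, with the higher value in library 1, as for Lefty1.

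**Figure D4:**
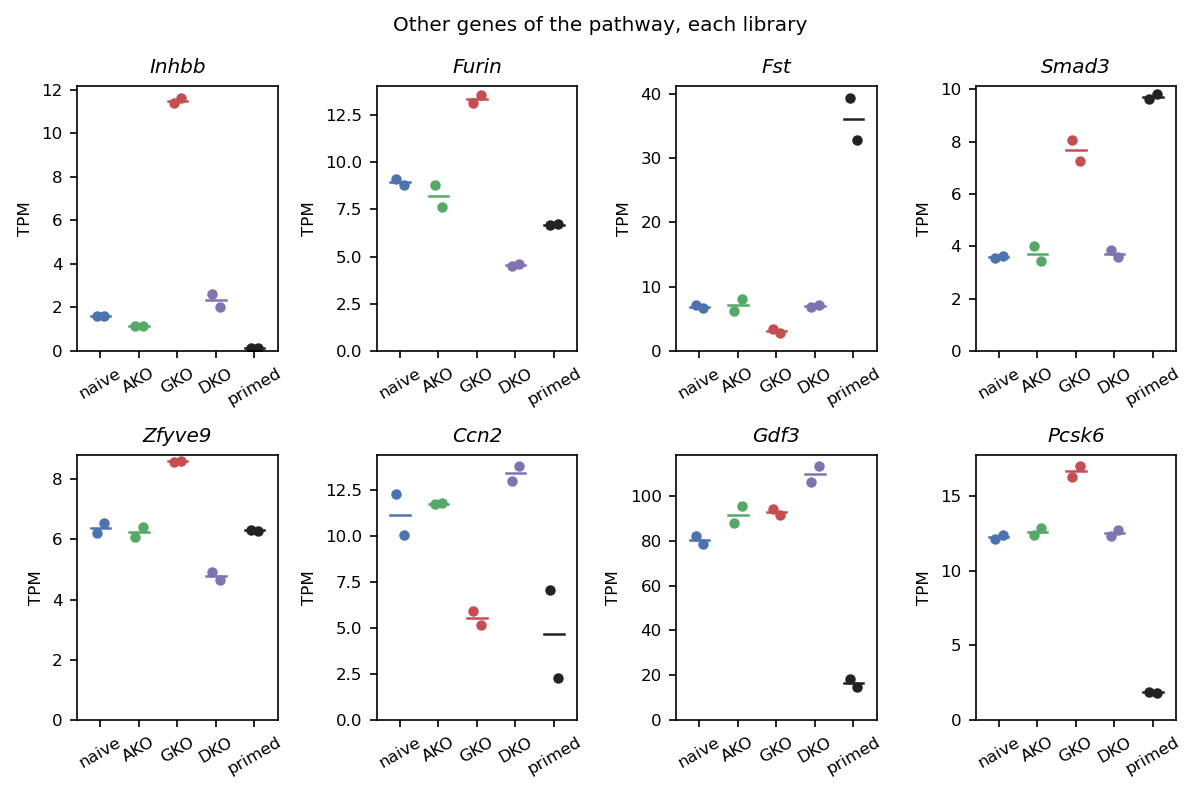
TPM of 8 further genes of the pathway in each library, on linear axes from 0, with each line's 2 libraries as points and their mean as a bar. Inhbb stands 7.18-fold above naïve ESCs in GKO and 1.45-fold in DKO, Smad3 is above them in GKO and overlaps them in DKO, and Furin and Zfyve9 are above naïve ESCs in GKO and below them in DKO.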

How the data were processed

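Bulk RNA of 10 libraries, 2 for each of 5 lines, was analysed. The authors trimmed the reads, aligned them with STAR, estimated expression with RSEM and deposited TPM for protein-coding genes. The methods name GRCm39 as the build, whereas the processing notes of the submitters name Trim Galore 0.6.6, STAR 2.7.9a, RSEM 1.3.3, GRCm38 and a human build, and the kit and read length also differ between both sources. TPM sums over the listed genes were between 500162 and 578952. Depth cannot be read from TPM, so no counting interval was derived. Libraries were assigned to lines by their sample records, and 0 other per-sample columns were present.

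Of 21853 genes, the 12060 that reached 1 TPM in 2 or more libraries were tested on log2(TPM + 1). Differences are on this scale, which understates the change of low genes. All lines were fitted together by limma 3.58.1 in R 4.3.3, with an intensity trend and Benjamini-Hochberg adjustment over all tested genes within each of 7 comparisons, with an adjusted p of 0.05 as threshold. Standard errors are those of limma with residual degrees of freedom of 5 before moderation. The alternatives tried were a pseudocount of 0.1, no filter, a filter at a mean of 5 TPM, 3 other scalings, no intensity trend, the replicate number as a block, no primed libraries, only the compared lines, a minimum difference of 1, and each library left out. Samples with the same number did not deviate together (correlations between -0.13 and 0.08).

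All 9 members were described in every comparison. Of the 41 further pathway genes, those were named that reached a mean of 5 TPM in a compared line, passed, and differed by at least 0.5 (at least 1 for primed ESCs), at most 6 per comparison. Some genes that this rule names are counted but not reported here. Cer1 was named after its values were seen. Members and lists were chosen with earlier results of these data known. Sequences and positions were read from GRCm39 with GENCODE annotation, where Tdgf1 is named Cripto, and from RefSeq promoter windows. The deposited tables hold no coordinates.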

Additional observations from a re-analysis of the deposited data

Results flagged for a closer look

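The response of Acvr2b to the loss of Gys1 differed between AMPK backgrounds, by 0.41 on the log2(TPM + 1) scale in limma's test of the difference (SE 0.11, adjusted p = 0.024). The call did not pass without naïve library 1, naïve library 2, AKO library 1 or either library of GKO or DKO (adjusted p between 0.056 and 0.086), which are 7 of the 8 libraries compared. Gys1 loss left Acvr2b at 12.5 and 12.1 TPM against 12.1 and 11.7 without the AMPK KO genotype, and at 9.21 and 9.52 against 12.7 and 12.0 with it. In the wider pathway the same test gave 1.65 for Inhbb, 1.25 for Furin, 0.91 for Smad3 and 0.70 for Zfyve9, all with the higher response to Gys1 loss without the AMPK KO genotype. It gave -0.94 for Fst. No line held enough libraries for a test of single outlying samples.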

How the results depend on the processing

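Of 9 members, 5 passed in primed against naïve ESCs with only the compared lines, where 8918 of the 12060 tested genes did. Without the primed libraries, and equally with only the compared lines, the counts were 5 for GKO and 7 for DKO against naïve ESCs, 2 for GKO against DKO, 7 for DKO against AKO and 2 for the difference between Gys1 contrasts. With only the compared lines, 7292, 6379, 5791, 6203 and 4499 of all tested genes passed in the same order. With a minimum difference of 1 all 5 of these member counts were 0, and the wider pathway genes were 2, 3, 4, 1 and 4, and 11 for primed ESCs. Of all tested genes, 433, 357, 323, 375 and 349 passed with that minimum, and 3355 for primed ESCs. A filter at a mean of 5 TPM left 17 wider genes in primed ESCs, where 6546 of 8294 tested genes passed. Leaving out 1 library at a time, members numbered 6 to 9 in primed ESCs, 2 to 5 in GKO, 2 to 7 in DKO and 0 to 0 in AKO against naïve ESCs, 1 to 2 in GKO against DKO, 3 to 7 in DKO against AKO and 0 to 3 in the difference. The wider genes numbered 24 to 29, 11 to 22, 11 to 16, 0 to 0, 15 to 24, 8 to 18 and 12 to 19 in the same order. Leaving out naïve library 1 or either GKO library gave the 11 in GKO, and AKO library 1 or DKO library 2 the 8 in DKO against AKO. Leaving out either primed library gave the highest member count in each comparison other than AKO against naïve ESCs and primed against naïve ESCs, where it gave 8, and naïve library 2 left out gave the 6. With the replicate number as a block, 5 members passed in DKO against AKO, with Lefty2 added (adjusted p = 0.043), and the other member counts were the same. Lefty2 in that comparison also passed with the filter at 5 TPM (0.041) and median-ratio scaling (0.049). Rescaling every library to the same sum of listed genes moved the median of all genes by 0.17 in primed ESCs and 0.11 in GKO. By scaling, directions turned only for differences near 0 that did not pass. By rescaling these were Skil in GKO (0.090), in GKO against DKO Lefty2 (0.037), Tdgf1 (0.049), Acvr1b (0.043), Foxh1 (0.052) and the Lefty sum (0.017), Tdgf1 in DKO against AKO (0.044) and Foxh1 in the difference (0.0068). By quantile normalization they were, in GKO against DKO, Tdgf1 (0.042), Acvr1b (0.017) and Foxh1 (0.032), Tdgf1 in DKO against AKO (0.044) and Foxh1 in the difference (0.00077). By median-ratio scaling they were Tdgf1 (0.00036) and Foxh1 (0.0040) in GKO against DKO. With 1 library left out, the Lefty sum in primed ESCs ranged from -2.34 to 1.13, Nodal in GKO from -0.012 to 0.052 and Skil in GKO from -0.053 to 0.0057. In AKO, Lefty1 ranged from -0.21 to 0.11, Acvr1b from -0.033 to 0.10 and Foxh1 from -0.10 to 0.043. In GKO against DKO, Lefty2 ranged from -0.037 to 0.00041, Tdgf1 from -0.019 to 0.0078, Acvr1b from -0.062 to 0.043 and Foxh1 from -0.046 to 0.043. In the difference, Smad7 ranged from -0.036 to 0.13, Acvr1b from -0.042 to 0.091 and Foxh1 from -0.10 to 0.041. These differences, the Lefty sum apart, did not pass. TPM holds no depth, so how far depth limits the low genes cannot be given.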

Other observations

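The genes most like 3 members were sought over the 8 libraries of naïve ESCs, AKO, GKO and DKO, among 8081 genes with a mean of at least 5 TPM, by Pearson's r of log2(TPM + 1). These values are descriptions, since the libraries fall into lines and each gene was picked as the highest of many. For Lefty1 they were Nsdhl (r = 0.998), an enzyme of cholesterol synthesis, Exosc4 (r = 0.995), a subunit of the RNA exosome, and Mrps17 (r = 0.994), a protein of the mitochondrial ribosome. Nsdhl stood at 24.1 and 24.2 TPM in naïve ESCs, 25.1 and 23.1 in AKO, 12.0 and 12.2 in GKO and 13.3 and 14.6 in DKO. For Nodal they were Esyt1, Hp1bp3 and Nop53 (r between 0.96 and 0.97). Esyt1, which tethers the endoplasmic reticulum to the plasma membrane, stood at 17.7 and 17.7 TPM in naïve ESCs and 20.8 and 22.0 in DKO. For Tdgf1 they were Zfp410, Nop14 and Strn3 (r between 0.93 and 0.95), over a range of Tdgf1 of only 426 to 467 TPM.

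Within the receptor classes, Acvr1b was 36.6% and 40.3% of the summed type I receptor TPM in naïve ESCs, 38.7% and 35.8% in AKO, 48.1% and 51.4% in GKO, 41.0% and 41.7% in DKO and 18.8% and 21.8% in primed ESCs. Tgfbr1, the type I receptor of TGF-β, rose in DKO and fell in GKO against naïve ESCs, at 14.7 TPM for the mean in naïve ESCs (SD 0.55, n = 2), 12.8 (SD 0.46, n = 2) in GKO and 18.1 (SD 0.17, n = 2) in DKO. Tgfbr3, a co-receptor that presents TGF-β ligands and binds inhibin, rose in both, from 0.383 and 0.307 TPM in naïve ESCs to 1.58 and 1.48 in GKO and 1.71 and 1.71 in DKO. Tgfbr1 and Tgfbr3 were picked here after their values were seen.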
